A study of Mus musculus with 12 samples.

Results

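The genes described here mark the cells of blood vessels: 7 genes of endothelial cells (Pecam1, Cdh5, Cldn5, Flt1, Kdr, Tek and Vwf) and 3 genes of mural cells (Pdgfrb, Rgs5 and Acta2). They were taken by symbol, and all 10 were found among the 44345 gene names of the deposited count tables. The tables hold RNA sequencing of lumbar dorsal root ganglia (DRG), which house the cell bodies of sensory neurons, from C57BL/6 mice aged 5 to 8 weeks that carried no stated allele. The study asked what environmental enrichment (EE) for 10 days does to gene expression in these ganglia relative to standard housing (SH). There were 4 groups of 3 libraries. Captured EE and captured SH libraries hold large neurons (30 µm across or more) cut by laser from 16 µm sections under toluidine blue stain. Each pooled 3 mice, with RNA integrity numbers of 6 to 7, and a kit that removes ribosomal RNA (RiboZero ScriptSeq) was given 100 ng and read at 125 bases from both ends. Whole EE and whole SH libraries came from whole ganglia. Each pooled 2 mice, its RNA had an integrity number above 7.5, and the kit selected mRNA (TruSeq), read at 100 bases from both ends. The deposited column headers of the whole libraries carry the word Sham, which those of the captured libraries lack. The headers do not explain it.

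Endothelial cells line every vessel and are held together by junction proteins, while mural cells, the pericytes and smooth muscle cells, wrap around that lining. Vascular endothelial growth factor (VEGF) acts on the lining through the receptors KDR and FLT1, angiopoietins act through TEK, and platelet-derived growth factor from endothelium recruits pericytes through PDGFRB. DRG are densely supplied with capillaries around the neuronal cell bodies, and these vessels lack the tight barrier of the brain. The 10 genes are used as markers of vessels, and in bulk libraries RNA of vessel cells and any RNA of the same genes in neurons cannot be told apart.

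Promoters are shown for the 3 genes on which the comparisons turn: Flt1 and Cldn5, an endothelial pair that stood on opposite sides in captured neurons and whole ganglia, and Rgs5, the mural gene with the largest difference between housing groups in captured neurons. The RefSeq promoter table (build GRCm38.p6, from 250 bases before the start of transcription to 50 bases after it) matched 6 of the 10 genes: Cldn5, Flt1, Kdr, Tek, Rgs5 and Acta2. The windows are chr5:147725962-147726261 on the minus strand for Flt1, chr16:18776597-18776896 on the plus strand for Cldn5 and chr1:169655251-169655550 on the plus strand for Rgs5. Capitals mark matches on either strand. The motif AGGAAG is a core of sites for ETS factors, which act in endothelium. The motif AGATAA is the core bound by the zinc finger family named for it. The motif TATAAA positions the start of transcription.
Flt1: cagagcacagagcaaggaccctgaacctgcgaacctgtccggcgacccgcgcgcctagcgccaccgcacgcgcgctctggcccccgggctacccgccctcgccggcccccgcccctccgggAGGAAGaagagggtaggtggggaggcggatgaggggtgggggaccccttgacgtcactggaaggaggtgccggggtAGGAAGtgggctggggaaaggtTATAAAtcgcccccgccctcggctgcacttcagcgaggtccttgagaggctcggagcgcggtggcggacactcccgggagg
Cldn5: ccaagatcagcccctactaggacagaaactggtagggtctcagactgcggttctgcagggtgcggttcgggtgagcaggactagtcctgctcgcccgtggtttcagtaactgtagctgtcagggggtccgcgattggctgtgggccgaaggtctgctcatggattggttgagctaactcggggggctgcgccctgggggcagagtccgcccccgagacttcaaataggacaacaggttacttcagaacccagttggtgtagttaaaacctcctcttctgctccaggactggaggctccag
Rgs5: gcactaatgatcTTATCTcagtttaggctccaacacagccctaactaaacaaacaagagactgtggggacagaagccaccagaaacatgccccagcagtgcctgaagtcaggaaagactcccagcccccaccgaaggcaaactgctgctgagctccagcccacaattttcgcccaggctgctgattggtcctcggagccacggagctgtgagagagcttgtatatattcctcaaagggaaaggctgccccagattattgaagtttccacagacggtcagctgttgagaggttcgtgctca
The Flt1 window held AGGAAG at positions -129 and -53 and TATAAA at -31, counted from the start. The Rgs5 window held AGATAA on the opposite strand at -238, and the Tek window held it at 37. The Cldn5, Kdr and Acta2 windows held none of the 3. The CArG box, CC and GG around 6 letters A or T, was also searched. It was found in none of the matched windows and in 1.63% of all promoters. Among all 32841 promoters of the table, 35.4% held AGGAAG, 11.2% AGATAA and 13.6% TATAAA, and no motif overlapped another in the windows shown. Such a match is a description of the letters only.

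Reads in genes numbered from 19296200 to 29434400 in the captured libraries and from 11343600 to 17036500 in the whole ones. Each of the 10 genes had reads in every library, at least 62 and at most 9167 of them. Levels are given as CPM, counts set against the size of each library and scaled for library composition by the trimmed mean of M-values (TMM) over the 12 libraries. Genes of the other cell types describe the 2 preparations. Higher and lower here mean past an adjusted p of 0.05 in edgeR's quasi-likelihood test of captured against whole libraries. Of all 17412 genes tested, 40.8% were higher and 40.9% lower by this rule. All 6 myelinating Schwann cell genes were lower in captured neurons, with summed levels of 870 to 1220 CPM in captured libraries against 5524 to 7942 CPM in whole ones. All 7 measured blood cell and platelet genes were lower too, at 10.1 to 16.2 CPM in sum in captured libraries against 76.7 to 211 CPM in whole ones. Fibroblast and meningeal genes were lower for 6 of 8 and higher for 1, with sums of 293 to 469 CPM in captured libraries against 646 to 785 CPM in whole ones. Macrophage genes were lower for 5 of 7 measured and higher for 1, with sums of 33.0 to 51.8 CPM in captured libraries against 53.5 to 64.6 CPM in whole ones. Satellite glia genes, of the cells that wrap each neuron, were higher for 4 of 6 and lower for 1, with sums of 2086 to 2832 CPM in captured libraries against 1924 to 2386 CPM in whole ones. Of the neuron lists, 2 of 6 genes of large-diameter neurons were higher and 3 lower, near the shares of all genes. Of the 6 nociceptor genes, 5 were higher and 1 lower. No gene of any of these lists was at 0 in any library. The part these cells have in the results on vessel genes was not tested.

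**Figure D1:**
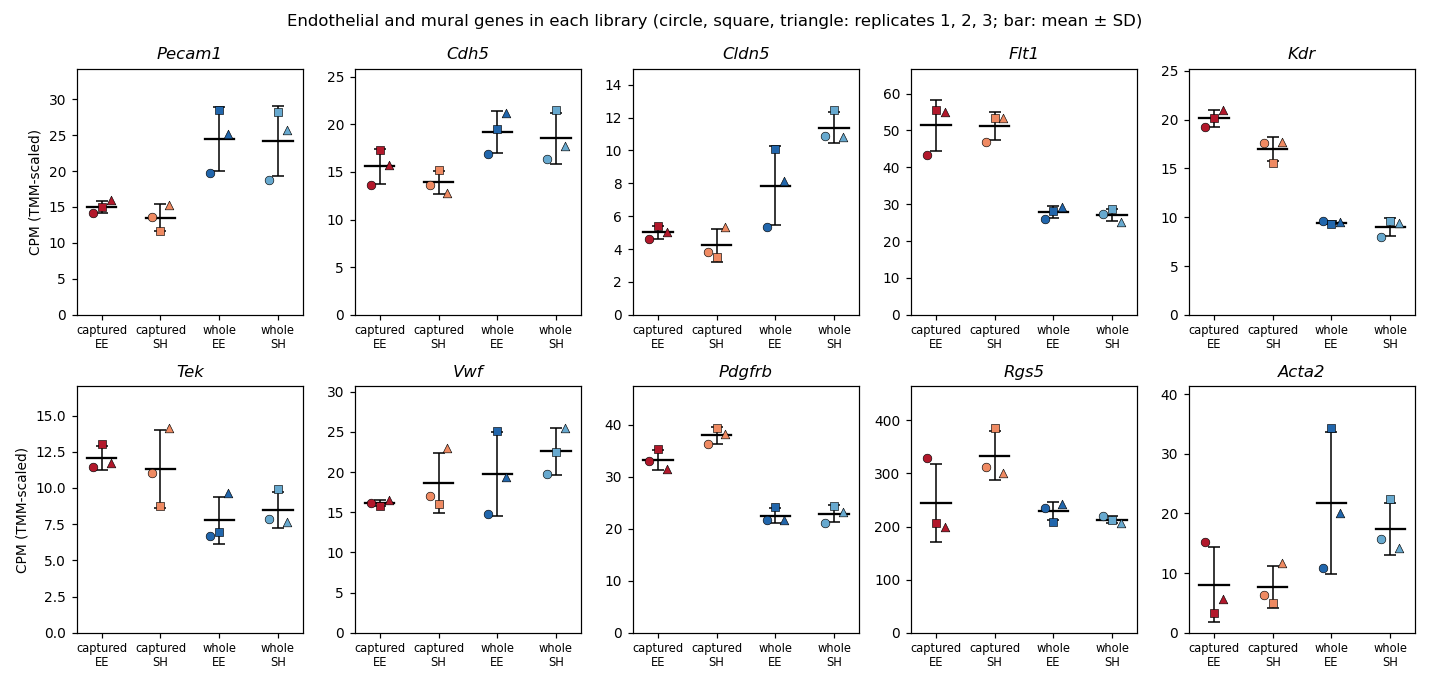
TMM-scaled CPM (vertical axes, from 0) of each of the 10 genes in the 12 libraries. Points are libraries in captured EE, captured SH, whole EE and whole SH groups, and bars are means ± SD of 3. Flt1, Kdr and Pdgfrb sit higher in all 6 captured libraries than in all 6 whole ones, Pecam1 lower, and captured EE replicate 1 stands apart from the other captured EE libraries in Rgs5 and Acta2.

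Rgs5, a regulator of G-protein signalling abundant in pericytes, had the highest level per length in both preparations. It reached 58.7 ± 14.5 CPM per kilobase in captured libraries and 52.0 ± 3.06 FPKM in whole ones (SD, n = 6 each). FPKM, fragments scaled by gene length and library size, are the authors' own values deposited for whole ganglia, and the lengths they imply were used to put captured CPM on the same footing, here with library size alone and without the TMM scaling. The implied lengths were 11650 bases for Flt1 and 16152 for Vwf, against 6895 and 8834 in the longest GENCODE transcript of each. For Pdgfrb the implied length was 5508 bases, against 5423. The places of Flt1 and Vwf in the order therefore rest on the length used, and no order by transcript length was computed. In captured neurons Pdgfrb, the pericyte receptor, was next at 6.01 ± 0.487 CPM per kilobase. The VEGF receptor Flt1 had 4.10 ± 0.373 CPM per kilobase and Acta2, smooth muscle actin, had 4.08 ± 2.41. Then came Cdh5 at 3.42 ± 0.395, Pecam1 at 3.06 ± 0.349, Cldn5 at 3.02 ± 0.548, Kdr at 2.36 ± 0.269, Tek at 2.30 ± 0.381 and Vwf at 1.00 ± 0.158 CPM per kilobase. The ranges over the 6 captured libraries separated Rgs5 from Pdgfrb, Pdgfrb from Flt1 and Tek from Vwf, and every other pair of neighbours in this order overlapped. In whole ganglia Acta2 came second with 11.8 ± 5.09 FPKM, followed by Cldn5 at 7.29 ± 1.96, Pecam1 at 6.04 ± 1.09, Cdh5 at 5.06 ± 0.619 and Pdgfrb at 4.43 ± 0.300. Below these stood Flt1 at 2.53 ± 0.150, Tek at 1.84 ± 0.315, Vwf at 1.41 ± 0.284 and Kdr at 1.36 ± 0.0935 FPKM. There the ranges separated Rgs5 from Acta2, Pdgfrb from Flt1 and Flt1 from Tek, and the other neighbours overlapped. The order of means thus placed junction and surface genes (Cldn5, Pecam1, Cdh5) above the receptors Pdgfrb and Flt1 in whole ganglia and below them in captured neurons. The receptors Kdr and Tek stood below these junction and surface genes in both preparations. Ranges of Cdh5 and Pdgfrb overlapped in whole ganglia, as did those of Flt1 and Cdh5 in captured neurons.

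Of the 10 vessel genes, 5 were higher in captured neurons and 5 lower than in whole ganglia. The receptors Kdr, Flt1, Pdgfrb and Tek and the pericyte gene Rgs5 were higher. The smooth muscle gene Acta2, the tight junction gene Cldn5, the surface molecule Pecam1, the adherens junction gene Cdh5 and Vwf, which encodes a clotting factor stored in endothelium, were lower. All 10 passed edgeR's quasi-likelihood test with Benjamini-Hochberg adjustment over 17412 genes at an adjusted p under 0.05. Of all genes tested, 81.7% passed, 40.8% as higher and 40.9% as lower, so passing was common among genes at large and the members' split between the sides was near theirs. The labels do not say whether pools of 1 group came from separate litters or cages, so each p is set against a library-to-library spread that can be technical. In bulk RNA, fewer cells of a type and less RNA per cell cannot be told apart. Capture, RNA quality, library kit, read length, mice per pool and sequencing lane all differ between the preparations and cannot be told apart either. The same holds for whatever the word Sham in the headers of the whole libraries stands for.

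The receptors were the clearest of the higher genes. Kdr, the main signalling receptor of VEGF, had a lowest, median and highest level of 15.5, 18.5 and 21.0 CPM in the captured libraries, against 7.99, 9.46 and 9.66 CPM in the whole ones. The 2 sets did not overlap, and the log2 fold change was 1.00 (SE 0.08, edgeR adjusted p = 1.84e-09). Flt1, a VEGF receptor that also acts as a decoy, had 43.5, 53.5 and 55.6 CPM in captured libraries, against 25.2, 27.7 and 29.3 CPM in whole ones. It did not overlap either, with a log2 fold change of 0.90 (SE 0.07, edgeR adjusted p = 3.10e-09). Pdgfrb had 31.4, 35.8 and 39.5 CPM in captured libraries, against 21.1, 22.5 and 24.3 CPM in whole ones. Again all captured libraries were above all whole ones, with a log2 fold change of 0.65 (SE 0.06, edgeR adjusted p = 2.23e-08). Tek, the angiopoietin receptor, had 8.76, 11.6 and 14.2 CPM in captured libraries, against 6.68, 7.75 and 9.93 CPM in whole ones. Its sets overlapped, and the log2 fold change was 0.53 (SE 0.13, edgeR adjusted p = 0.00111). Rgs5 had 199, 307 and 387 CPM in captured libraries, against 206, 216 and 243 CPM in whole ones. Here 4 captured libraries lay above every whole one, while captured EE replicate 3 and, by a small margin, captured EE replicate 2 lay below every whole one, with a log2 fold change of 0.37 (SE 0.10, edgeR adjusted p = 0.00361).

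Among the lower genes, Pecam1, an adhesion molecule at endothelial contacts, was the one without overlap. Its lowest, median and highest levels were 11.6, 14.6 and 15.9 CPM in captured libraries, against 18.7, 25.4 and 28.6 CPM in whole ones. The log2 fold change was -0.78 (SE 0.11, edgeR adjusted p = 5.06e-06). Without overlap thus stood 4 of the 10 members, against 64.9% of all genes tested. Cldn5, a claudin of endothelial tight junctions, had 3.49, 4.81 and 5.41 CPM in captured libraries, against 5.35, 10.4 and 12.5 CPM in whole ones. The lowest whole library, whole EE replicate 1, fell just inside the captured range, and the log2 fold change was -1.05 (SE 0.14, edgeR adjusted p = 3.87e-06). Cdh5, the cadherin of endothelial junctions, had 12.8, 14.5 and 17.3 CPM in captured libraries, against 16.3, 18.6 and 21.5 CPM in whole ones. Its ranges overlapped at the edge, with a log2 fold change of -0.36 (SE 0.09, edgeR adjusted p = 0.00160). The annotation places an antisense gene, Gm29682, on the other strand of Cdh5 without overlap of exons, and whether counting used strand is not given in the sources used here. Vwf had 15.7, 16.4 and 22.9 CPM in captured libraries, against 14.8, 21.1 and 25.5 CPM in whole ones. The ranges overlapped widely, and the log2 fold change of -0.29 (SE 0.12, edgeR adjusted p = 0.0319) had the largest adjusted p of the 10. It missed the threshold when any of 6 libraries was left out (captured EE replicate 2, captured SH replicates 1 and 2, whole EE replicate 2, whole SH replicates 2 and 3), with log2 fold changes of -0.28 to -0.17 and adjusted p of 0.0515 to 0.146. Without whole EE replicate 2 alone it was -0.17. Acta2 had 3.35, 5.97 and 15.1 CPM in captured libraries, against 10.9, 17.9 and 34.4 CPM in whole ones. Captured EE replicate 1 and captured SH replicate 3 lay inside the whole range, and the log2 fold change was -1.30 (SE 0.32, edgeR adjusted p = 0.00133). Acta2 belongs to the actin family, whose members are close in sequence. Reads without a unique alignment were tallied apart from genes, so its count may lack reads that match other actins as well.

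The preparation fold changes of genes at large ran with transcript length and base composition, and no correlation was computed for the members alone. Over 15672 genes with a transcript in the GENCODE annotation, the log2 fold change between captured and whole libraries correlated with GC content at a Spearman rho of -0.505 and with the length of the longest transcript at 0.439. These values describe genes of the same 12 libraries, which are not independent of each other. Cldn5 has a short transcript of 1416 bases with 60.5% GC, and the decile of genes highest in GC had a median log2 fold change of -0.99. Rgs5 has 41.1% GC, in the lowest decile, whose median was 0.75. Flt1, with a transcript of 6895 bases, stood in the longest decile, whose median was 1.02. Vwf, with 8834 bases, stood in the same decile and on the lower side. With offsets for length and GC content added to each library, an alternative chosen after seeing the data, 9 of the 10 members passed, against 75.1% of genes. Cldn5 then turned to a higher level in captured neurons, with a log2 fold change of 0.55 (SE 0.13, edgeR adjusted p = 0.00126). Rgs5 turned to a lower one, at -0.43 (SE 0.11, edgeR adjusted p = 0.00168), and Tek no longer passed at 0.05 (SE 0.13, edgeR adjusted p = 0.747). Flt1 went to 0.31, Kdr to 0.49 and Acta2 to -0.91, while Vwf went to -0.62. Pdgfrb at 0.65, Pecam1 at -0.78 and Cdh5 at -0.33 hardly moved. So Pdgfrb, Flt1 and Kdr were higher and Pecam1, Cdh5, Vwf and Acta2 lower with and without these offsets, and the sides of Cldn5 and Rgs5 depended on them.

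**Figure D2:**
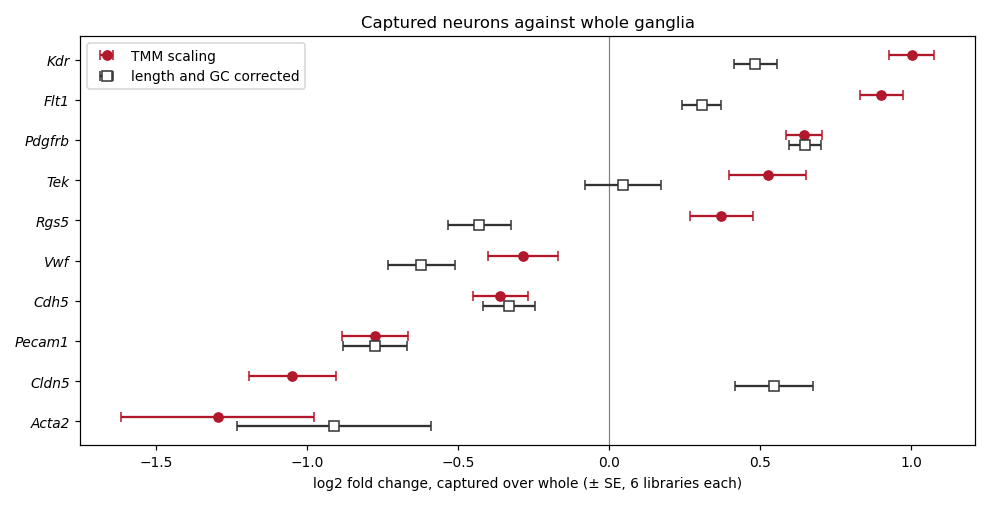
Log2 fold change of captured over whole libraries (horizontal axis, ± SE, 6 libraries each) for the 10 genes. Filled circles are TMM-scaled values and open squares values with length and GC offsets. Cldn5 moves from -1.05 to 0.55 and Rgs5 from 0.37 to -0.43, while Pdgfrb stays at 0.65.

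**Figure D3:**
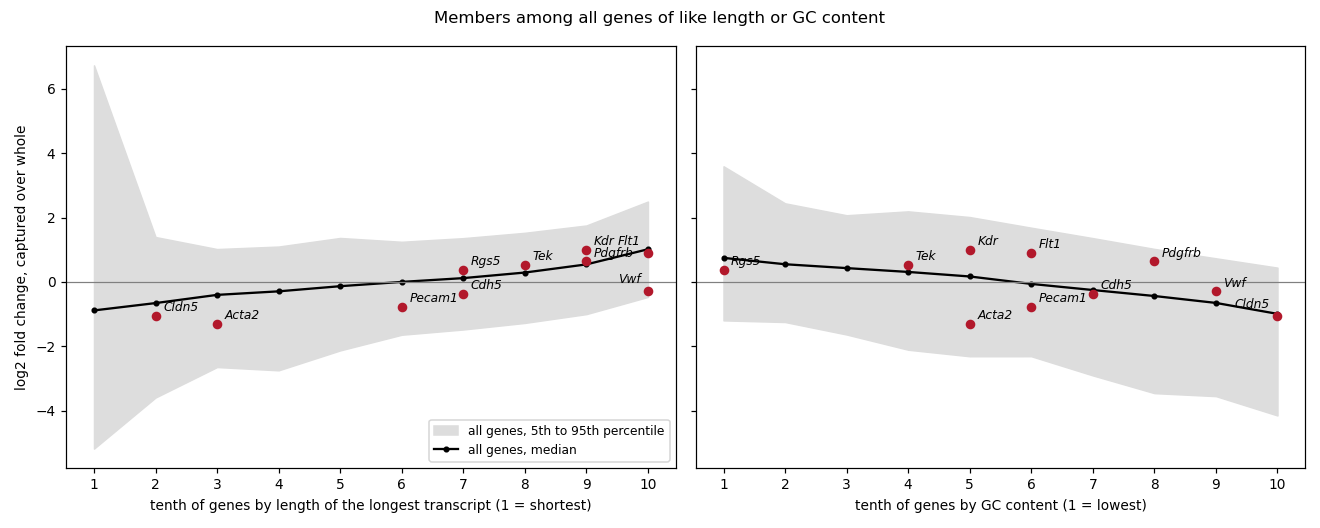
Log2 fold change of captured over whole libraries (vertical axis) by deciles of genes ordered by transcript length (left) and GC content (right). The line is the median of all genes in a decile, the band their 5th to 95th percentile, and red points are the 10 genes. Cldn5 lies close to the median of -0.99 of its GC decile, and Kdr, Flt1 and Pdgfrb lie above the medians of their GC deciles. In the length panel Flt1, at 0.90, lies below the median of 1.02 of its decile.

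Scaling by library size alone shifted the median of all genes to -0.21 and gave 33.2% of genes higher and 48.5% lower. Under it Rgs5 missed the threshold, at a log2 fold change of 0.16 (edgeR adjusted p = 0.153), and no member changed side. Within EE libraries alone, where 73.6% of genes passed, the Rgs5 value was 0.10 (edgeR adjusted p = 0.581). Within SH libraries alone, where 77.1% passed, it was 0.65 (edgeR adjusted p = 1.55e-05). When each of the 12 libraries was left out in turn, no member other than Vwf missed the threshold, and Rgs5 lay between 0.24, without captured EE replicate 1, and 0.44. Cldn5 was at -0.66 among EE libraries and at -1.43 among SH libraries, both past the threshold. Vwf missed it in both, at -0.29 among EE and -0.27 among SH libraries, with adjusted p of 0.115 and 0.0958.

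Of 20 further endothelial genes, 14 were lower in captured neurons, 3 were higher and 3 did not pass, with a median log2 fold change of -0.76, against -0.0036 for all genes tested. The lower ones included the transcription factor Sox18 at -3.01 (SE 0.35), Ecscr, an endothelial surface protein, at -2.15 (SE 0.16), and the transforming growth factor co-receptor Eng at -1.90 (SE 0.09). Sox18 rested on few reads, from 3 to 19 in a captured library. The higher ones were the drug exporter Abcb1a at 1.08 (SE 0.07), the phosphatase Ptprb, a partner of TEK, at 0.49 (SE 0.07), and the transcription factor Sox17 at 0.35 (SE 0.12). Of 17 further mural genes, 7 were lower, 4 higher and 6 did not pass, with a median of -0.35. Smooth muscle genes led the lower ones, with Tagln at -2.47 (SE 0.24), the myosin light chain Myl9 at -1.91 (SE 0.13) and the calponin Cnn1 at -1.90 (SE 0.48). Cnn1 also had few reads, from 2 to 32 in a captured library. Abcc9, a potassium channel subunit of pericytes, was higher at 1.63 (SE 0.12), as were the proteoglycan Cspg4 at 0.75 (SE 0.13) and the smooth muscle myosin Myh11 at 0.63 (SE 0.22). Of 17 genes for vascular growth factors, their further receptors and co-receptors and 2 hypoxia factors, 6 were higher, 2 lower and 9 did not pass, with a median of 0.10. The Notch ligand Jag1 was higher at 1.82 (SE 0.09), and so were the VEGF co-receptors Nrp2 at 1.28 (SE 0.05) and Nrp1 at 1.23 (SE 0.06). The growth factors Vegfb at -1.45 (SE 0.10) and Pdgfb at -0.98 (SE 0.15) were lower. With length and GC offsets, the counts became 11 lower and 2 higher for further endothelial genes, 6 and 4 for further mural genes, and 3 and 7 for the growth factor list. Of all genes, 39.4% were then lower and 35.7% higher, against 40.9% and 40.8% without the offsets. The medians became -0.35 for further endothelial genes, -0.08 for further mural genes and 0.09 for the growth factor list, against -0.03 for all genes.

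Housing was not seen to change any of the 10 genes in captured neurons at the threshold: 0 of 10 passed edgeR's test, where 3 of 16186 genes did (0.0185%). By unadjusted p under 0.05, 3 members passed, Kdr, Rgs5 and Pdgfrb, beside 15.9% of all genes. DESeq2 called 0 members and 522 genes (3.23%). Kdr had 19.3, 20.2 and 21.0 CPM in EE libraries, against 17.6, 15.5 and 17.7 CPM in SH libraries. Each EE library was above each SH library, with a log2 fold change of 0.26 (SE 0.10, edgeR adjusted p = 0.239). Pdgfrb had 33.0, 35.3 and 31.4 CPM in EE libraries, against 36.3, 39.5 and 38.1 CPM in SH libraries. Each EE library was below each SH library, with a log2 fold change of -0.18 (SE 0.08, edgeR adjusted p = 0.313). These 2 members were the ones without overlap, while 21.2% of all genes tested had none. The other endothelial genes Pecam1, Cdh5, Cldn5, Flt1 and Tek overlapped between housing groups, with log2 fold changes of 0.16, 0.17, 0.26, 0.01 and 0.11, and Vwf had -0.20.

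Rgs5 had the largest housing fold change of the 10 genes in captured neurons, and its call depended on which libraries and which filter were used. It had 330, 206 and 199 CPM in EE replicates 1 to 3, against 312, 387 and 302 CPM in SH replicates 1 to 3. EE replicates 2 and 3 lay below every SH library and EE replicate 1 lay among them, with a log2 fold change of -0.43 (SE 0.18, edgeR adjusted p = 0.273). Without captured EE replicate 1 it passed at -0.71 (SE 0.10, edgeR adjusted p = 0.00911), as did 602 of 16520 genes (3.64%). That library was the only one in lane 1, SH replicate 2 the only one in lane 2, and the other 4 captured libraries shared lane 3. Within lane 3, with 2 libraries a group, the log2 fold change was -0.59 (SE 0.06, edgeR adjusted p = 0.000407), as 658 of 16199 genes (4.06%) passed. With no filter on low counts it also passed, at -0.42 (edgeR adjusted p = 4.98e-05), when 902 of 36332 genes (2.48%) did. Leaving out any other captured library gave -0.50 to -0.30 and adjusted p of 0.300 to 0.660. Nociceptor genes moved in the same libraries. Their summed levels were 2901, 2282 and 2448 CPM in EE replicates 1 to 3, against 3123, 3553 and 2965 CPM in SH replicates 1 to 3. By unadjusted p under 0.05, 5 of the 6 nociceptor genes differed and 0 passed the adjusted threshold over all 6 libraries. Genes of large-diameter neurons summed to 10457, 14198 and 14685 CPM in EE replicates 1 to 3, against 9491, 8115 and 10253 CPM in SH replicates 1 to 3, and 5 of 6 had an unadjusted p under 0.05. Without captured EE replicate 1, 4 of 6 nociceptor genes passed as lower and 5 of 6 large-diameter neuron genes as higher by edgeR, and in lane 3 alone 5 of 6 and 5 of 6 did. The part of the neuron types in the Rgs5 difference was not tested. Further pericyte genes did not all go the way of Rgs5. Without captured EE replicate 1, Abcc9 stood at -0.37 and Kcnj8 at -0.08, while Notch3 stood at 0.01, Cspg4 at 0.22 and Mcam at 0.33. Among these, Mcam alone passed, as higher in EE (edgeR adjusted p = 0.0398).

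**Figure D4:**
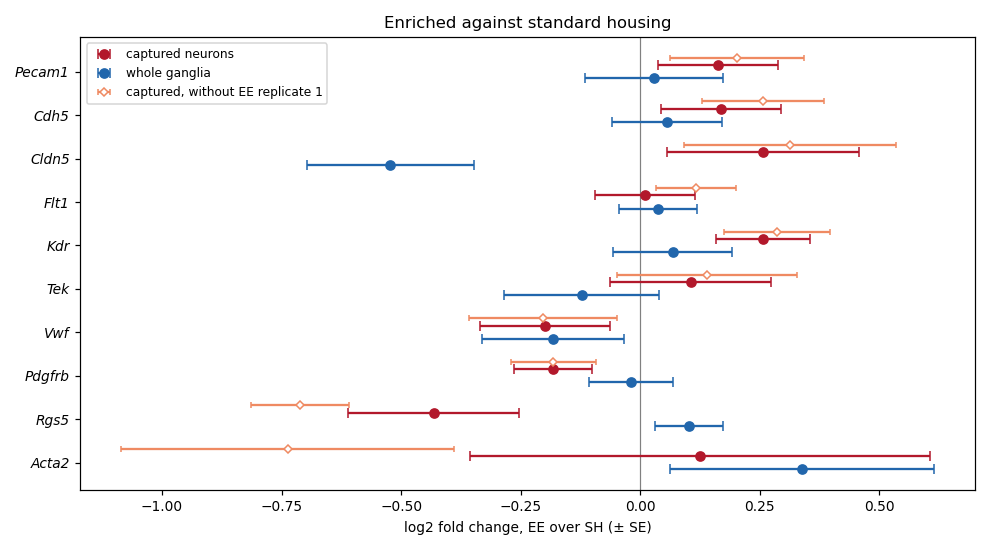
Log2 fold change of EE over SH (horizontal axis, ± SE) for the 10 genes in captured neurons (red, 3 against 3 libraries), in whole ganglia (blue, 3 against 3) and in captured neurons without EE replicate 1 (open orange, 2 against 3). Rgs5 moves from -0.43 to -0.71 and Acta2 from 0.12 to -0.74 without that library, and Cldn5 stands at 0.26 in captured neurons and -0.52 in whole ganglia.

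Acta2 in captured neurons had 15.1, 3.35 and 5.70 CPM in EE replicates 1 to 3, against 6.23, 4.96 and 11.7 CPM in SH replicates 1 to 3. Its groups overlapped, with a log2 fold change of 0.12 (SE 0.48, edgeR adjusted p = 0.924). The sign turned without captured EE replicate 1, to -0.74 (edgeR adjusted p = 0.298), without captured SH replicate 2, to -0.10 (edgeR adjusted p = 0.971), and in lane 3 alone, to -0.97 (edgeR adjusted p = 0.0967). Tagln, Myh11, Myl9 and Mylk of the further mural list were highest in the same 2 libraries, EE replicate 1 and SH replicate 3. Not all muscle genes of that list were. In SH replicate 3 Lmod1, at 1.06 CPM, lay below EE replicate 3, at 1.19 CPM. Cnn1 there, at 0.61 CPM, was close to SH replicate 1, at 0.60 CPM, and Des was highest in SH replicate 2, at 10.7 CPM. Tagln had 12.6, 6.22 and 5.65 CPM in EE replicates, against 5.75, 3.85 and 8.31 CPM in SH replicates. Myh11 had 24.3, 12.1 and 18.9 CPM in EE replicates, against 14.2, 16.8 and 28.6 CPM in SH replicates. Skeletal muscle genes were high in another library, SH replicate 2, where Acta2 was at 4.96 CPM. Leaving out Pvalb, which sensory neurons also express, the 7 other skeletal muscle genes summed to 6.04, 9.79 and 4.36 CPM in EE replicates 1 to 3, against 14.0, 731 and 4.02 CPM in SH replicates 1 to 3. Pvalb itself had 29.6, 89.4 and 84.7 CPM in EE replicates, against 36.5, 39.0 and 38.9 CPM in SH replicates.

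**Figure D5:**
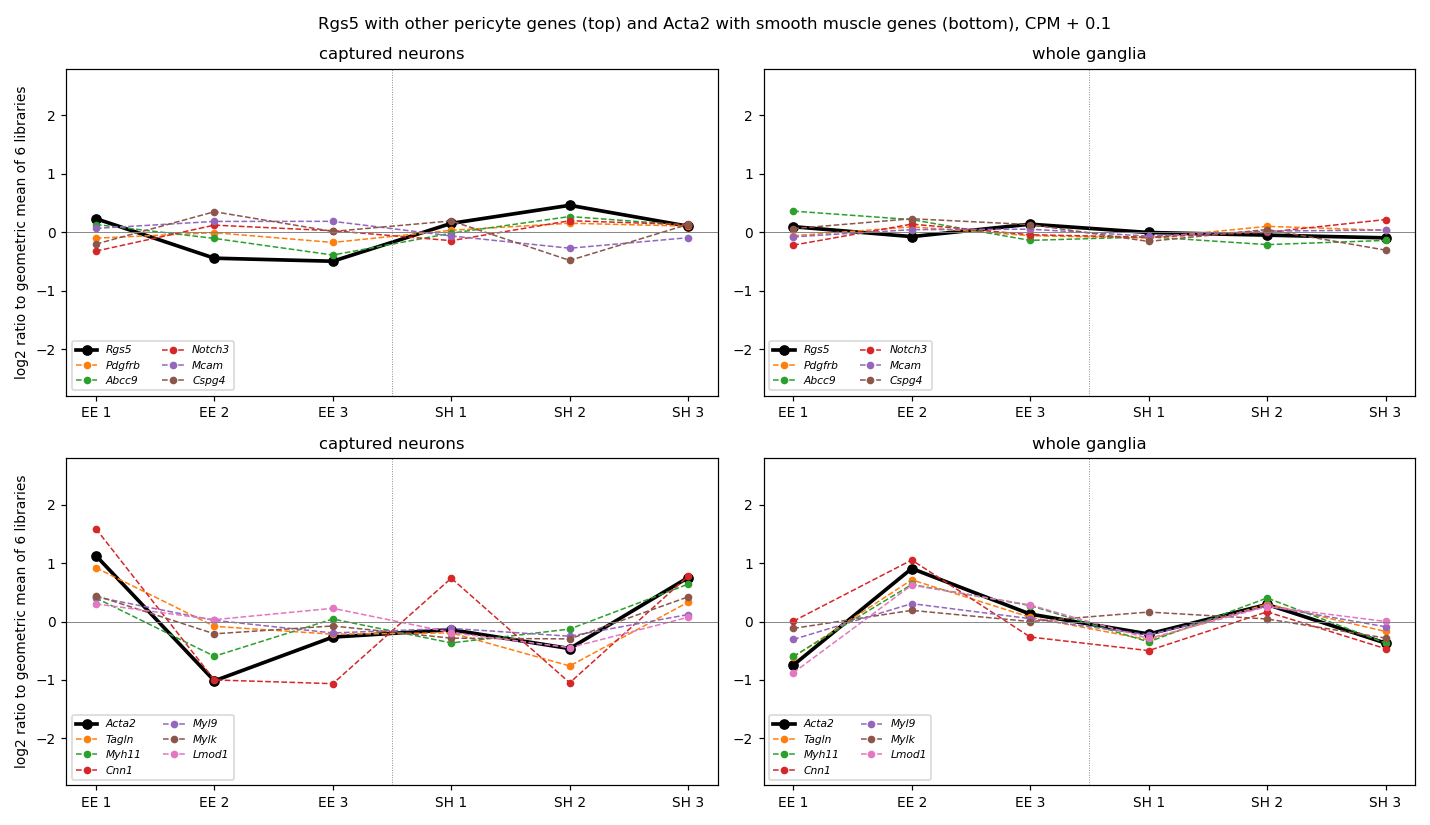
Log2 ratio of each library's CPM (plus 0.1) to the geometric mean of the 6 libraries of its preparation (vertical axes), EE replicates left of SH replicates. Upper panels show Rgs5 (thick line) with other pericyte genes and lower panels Acta2 (thick line) with smooth muscle genes, chosen after their values were seen. Acta2, Tagln and Cnn1 are all high in captured EE replicate 1 and in whole EE replicate 2, and Rgs5 dips in captured EE replicates 2 and 3.

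In whole ganglia 0 of the 10 genes passed for housing, where 1 of 15845 genes did (0.00631%). At an unadjusted p under 0.05 there was 1 member, Cldn5, beside 2.9% of genes, and DESeq2 called 0 members. Cldn5 had 5.35, 10.1 and 8.13 CPM in EE replicates 1 to 3, against 10.9, 12.5 and 10.8 CPM in SH replicates 1 to 3. Each EE library was below each SH library. It follows that EE was also the lower one within each of the 3 lanes, which held the EE and SH library of the same number. No other member was without overlap, and 7.4% of all genes tested had none. The log2 fold change was -0.52 (SE 0.17, edgeR adjusted p = 0.9996). With the lane as a replicate block it was -0.55 (SE 0.13, edgeR adjusted p = 0.0523), just short of the threshold, when 32 genes (0.202%) passed. With the block and length and GC offsets together the adjusted p was 0.463, when 13 genes (0.0901%) passed. Acta2 had 10.9, 34.4 and 19.98 CPM in EE replicates, against 15.8, 22.4 and 14.1 CPM in SH replicates. EE replicate 2 was the highest of the 6 and EE replicate 1 the lowest, and the log2 fold change of 0.34 (SE 0.28, edgeR adjusted p = 0.9996) became -0.16 without EE replicate 2. In that library Tagln was also highest, at 61.5 CPM, and the 7 skeletal muscle genes other than Pvalb summed to 152 CPM. They summed to 9.35 and 53.0 CPM in EE replicates 1 and 3, against 3.45, 11.5 and 122 CPM in SH replicates 1 to 3. Rgs5 had 236, 209 and 243 CPM in EE replicates, against 220, 213 and 206 CPM in SH replicates. The groups overlapped, with a log2 fold change of 0.10 (SE 0.07, edgeR adjusted p = 0.9996). The remaining 7 genes had log2 fold changes of -0.18 to 0.07, none past the threshold.

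The difference between the housing effects in captured neurons and in whole ganglia was tested in 1 fit over the 12 libraries. It was significant for 0 of the 10 members and 0 of 17412 genes by edgeR (0%), while 2 members and 11.7% of genes had an unadjusted p under 0.05, and DESeq2 called 0 members and 145 genes (0.833%). The 2 members were Cldn5, with a difference of 0.77 on the log2 scale (SE 0.29, edgeR adjusted p = 0.323), and Rgs5, with -0.55 (SE 0.21, edgeR adjusted p = 0.333). For Rgs5 the difference passed without captured EE replicate 1, at -0.82 (edgeR adjusted p = 0.00822), as did 233 genes (1.32%). It also passed with the captured libraries of lane 3 alone, at -0.70 (edgeR adjusted p = 0.00342), beside 171 genes (0.988%), and with no filter on low counts, at -0.54 (edgeR adjusted p = 0.000511), beside 457 genes (1.24%).

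Of the further endothelial, further mural and growth factor genes, 0 passed for housing in either preparation. The genes with the smallest p are named here. In captured neurons, placental growth factor Pgf had 7.20, 10.9 and 8.98 CPM in EE libraries, against 4.50, 3.65 and 5.08 CPM in SH libraries. The groups were apart, with a log2 fold change of 1.04 (SE 0.20, edgeR adjusted p = 0.0898), and without captured EE replicate 1 Pgf passed at 1.18 (edgeR adjusted p = 0.0130), as it did in lane 3 alone at 1.06 (edgeR adjusted p = 0.00650). Angpt2, a ligand of TEK, had 27.2, 31.8 and 31.7 CPM in EE libraries, against 26.2, 22.9 and 23.55 CPM in SH libraries. Its groups were apart too, at 0.33 (SE 0.10, edgeR adjusted p = 0.165), and it passed without captured EE replicate 1 at 0.40 (edgeR adjusted p = 0.0453) but not in lane 3 alone, at 0.36 (edgeR adjusted p = 0.0845). The pericyte adhesion gene Mcam had 203, 221 and 221 CPM in EE libraries, against 186, 161 and 182 CPM in SH libraries. It stood at 0.30 (SE 0.07, edgeR adjusted p = 0.129) and passed without captured EE replicate 1 at 0.33 (edgeR adjusted p = 0.0398) and in lane 3 alone at 0.27 (edgeR adjusted p = 0.0217). Ptprb stood at -0.24 (SE 0.08, adjusted p = 0.197), Plvap, a protein of endothelial fenestrae, at 0.63 (SE 0.21, adjusted p = 0.203) and the muscle filament gene Des at -1.66 (SE 0.73, adjusted p = 0.303). In whole ganglia the smallest p belonged to Sox18 at 0.90 (SE 0.32) and Plvap at -0.25 (SE 0.15) among endothelial genes, Ndufa4l2 at -0.95 (SE 0.30) and Higd1b at -1.11 (SE 0.48) among mural genes, and the lymphatic growth factor Vegfc at -0.77 (SE 0.30) and Angpt2 at 0.29 (SE 0.12) among growth factors, each with an edgeR adjusted p of 0.9996. Of the lists for other cell types, 1 gene passed for housing over all 6 libraries without a replicate block, the satellite glia gene Fabp7 in captured neurons, with 286, 326 and 250 CPM in EE libraries against 165, 170 and 164 CPM in SH libraries (log2 fold change 0.80, SE 0.09, edgeR adjusted p = 0.0322). With the lane as a replicate block, 3 of 7 blood cell and platelet genes passed as higher in EE whole ganglia. They were the platelet chemokine Ppbp at 2.02 (SE 0.29, edgeR adjusted p = 3.30e-06), the red cell anion exchanger Slc4a1 at 0.97 (SE 0.16, edgeR adjusted p = 0.000133) and the haemoglobin gene Hba-a1 at 0.60 (SE 0.13, edgeR adjusted p = 0.0167), named after their values were seen.

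Across the 12 libraries, deviations of log2 CPM from the 4 group means were compared between members. Over the 45 pairs of members Pearson's r had a median of 0.29 and ran from -0.58 to 0.87, with 35 pairs above 0. Rgs5 was negative with all 7 endothelial genes, down to -0.58 with Flt1, and at -0.05 with Pdgfrb, and it was positive with Acta2 alone, at 0.33. Acta2 was closest to Vwf, at 0.63, and to Cldn5, at 0.56. Of 10603 genes with at least 5 CPM on average in each preparation, the 5 whose deviations were most like the members' mean were BC037034 (r = 0.95), Kank2 (0.95), the collagen-modifying enzyme gene Plod1 (0.93), the basement membrane collagen gene Col4a1 (0.92) and the caveolar gene Ptrf (0.92). These are descriptions over 12 libraries that share preparation, pools and lanes.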

How the data were processed

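Read counts per gene for 12 libraries were deposited by the authors. The submitters' processing notes name build mm10, HTSeq 0.6.0, TopHat2 2.0.12, FastQC 0.10.1, limma 3.22.7, SAMtools 0.1.19, R 3.1.1, Bowtie2 2.2.3 and edgeR 3.8.6, without their roles. FPKM values of whole ganglia were deposited by the authors as well. A second table for captured neurons held the counts times a constant per library and was not used. The 5 summary entries of each count table (reads in no feature and the like) were left out of library sizes; reads in no feature were 28.0% to 36.3% of a captured library's deposited counts and 47.0% to 47.6% of a whole one's. Counting intervals are not given; the spread between 3 libraries limits precision.

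Counts were tested with edgeR 4.0.16 (R 4.3.3) by quasi-likelihood F-tests, with TMM scaling, its default filter on low counts and Benjamini-Hochberg adjustment over all genes tested, at a threshold of 0.05. Housing was tested within each preparation, and captured against whole and the difference of the housing effects in a fit of all 12 libraries. The fits were tested on simulated data with the same spread for every gene and no outlying library. The planted changes were larger than the members' housing changes over all libraries. The simulations therefore do not cover smaller changes or a library that stands apart. Alternatives were DESeq2 1.42.0, other scalings, no filter, leaving out each library, replicate blocks, lane 3 alone, single housing groups, limma 3.58.1 on log2(FPKM + 0.1) for genes of at least 0.1 FPKM on average, and length and GC offsets (splines of the longest GENCODE transcript). In whole ganglia the labels put the EE and SH library of each number in 1 lane, so the numbers pair them. Same-numbered libraries' deviations correlated at 0.33, 0.16 and 0.07. Those of unlike number ran from -0.35 to 0.19, and EE replicate 2 was closer to SH replicate 3 (0.19) than to SH replicate 2 (0.16). In captured neurons the replicate block also went by number, although the libraries numbered 1 and those numbered 2 lay in different lanes. Groups were called apart when no library of 1 lay within the range of the other.

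The 10 members, the 11 gene lists and the tests were chosen with earlier results of these data known. Named in the text are all members, and from each list the genes past the threshold for housing (at most 4) or else the 2 of smallest p; for captured against whole the 3 largest changes per direction of the vessel lists; and the 5 genes most like the members. Names for all genes come from the files; 1 macrophage and 1 blood gene of the lists were not matched.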

Additional observations from a re-analysis of the deposited data

How the results depend on the processing

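Among the 10 members depth limits Cldn5 and Acta2 most, with as few as 64 and 62 reads in a library. Some genes of the other lists had fewer reads, and 3 libraries a group limit every housing comparison. In whole ganglia the genes past the threshold (1 with TMM and the default filter) numbered 0 with library size alone, 48 with no filter on low counts, 32 with the replicate block, 13 with the block and length and GC offsets, 2 by limma on FPKM, and 0 to 2 when 1 library was left out. The block changed the call of no member in any comparison. In captured neurons (3 genes) they numbered 522 by DESeq2, 902 with no filter and 0 with the replicate block. The block there went by library number and not by lane. They numbered 658 in lane 3 alone and 0 to 602 when 1 library was left out, 602 without EE replicate 1. Of the members, 1 passed with no filter, 1 in lane 3 alone and 0 to 1 when 1 library was left out, in each case Rgs5. For the difference of the housing effects (0 genes) they numbered 145 by DESeq2, 457 with no filter, 171 with captured libraries of lane 3 alone, 1 with length and GC offsets and 0 to 233 when 1 library was left out, and 1 member, Rgs5, passed with no filter, in lane 3 and in 1 such fit, against 0 in the others. The cause of these shifts was not tested. For captured against whole, 9 to 10 members passed when 1 library was left out.

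Signs turned for log2 fold changes under 0.35 in size and, for captured against whole, for Cldn5 (0.55) and Rgs5 (-0.43) with length and GC offsets. When 1 library was left out in whole ganglia, Pecam1 ran from -0.13 to 0.16, Cdh5 from -0.031 to 0.17, Flt1 from -0.0098 to 0.081, Kdr from -0.016 to 0.12, Tek from -0.31 to 0.00082, Pdgfrb from -0.076 to 0.024 and Acta2 from -0.16 to 0.65. In captured neurons Flt1 ran from -0.049 to 0.12, Tek from -0.050 to 0.30 and Acta2 from -0.74 to 0.56, while Acta2 was -0.056 with the block and -0.97 in lane 3, where Tek was -0.016. For the difference of the housing effects, Flt1 ran from -0.099 to 0.073, Vwf from -0.16 to 0.21 and Acta2 from -1.07 to 0.32. There Vwf was 0.0045 with library size alone, 0.014 with the block and 0.072 with length and GC offsets, and Flt1 was 0.039 with these offsets and 0.10 with lane 3.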
